A study of Mus musculus with 18 samples.

Results

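The neurotrophin system of the spinal dorsal horn (DHSC) was described through 6 genes, *Bdnf*, *Ntf3*, *Ntrk2*, *Ntrk3*, *Ngfr* and *Sort1*, which were taken by symbol from the 55573 genes of the count table. All 6 had enough reads to be tested in every comparison. RNA was sequenced from the ipsilateral lumbar DHSC (L3 to L5) of C57Bl/6 mice aged 8 to 12 weeks, taken 2 h after 8 µl per 20 g of body weight of 2% formalin was injected into a hind paw. The 18 libraries came from 6 F1/proestrus females (short interphase between the phases of formalin behaviour), 6 F2/metestrus females (long interphase) and 6 males. All animals had received formalin and every library came from the injected side, so no untreated level is given here. The dissected tissue holds many cell types, and a lower level in it cannot be told apart between fewer cells of a type and less RNA in each cell.

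Neurotrophins are secreted growth factors that keep neurons alive during development and tune synapses in the adult. Mature ligands bind Trk receptor tyrosine kinases (brain-derived neurotrophic factor, encoded by *Bdnf*, binds TrkB, and neurotrophin-3, encoded by *Ntf3*, binds TrkC), while the uncleaved precursors bind the low-affinity receptor encoded by *Ngfr* together with sortilin, encoded by *Sort1*. In the dorsal horn, BDNF released by sensory afferents and microglia is known for raising the excitability of pain-transmitting neurons through TrkB.

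Each library held 73590509 to 125724156 reads assigned to genes, with a median of 103041428 in F1/proestrus, 97682732 in F2/metestrus and 110907170 in males. Library numbers in the header fell into 2 series of 9, each with 3 libraries of every group, and values are given within each series where they differ. Markers of dorsal horn neurons were detected in every library. F1/proestrus replicate 5 stood apart, because all 8 markers of dorsal root ganglion (DRG) neurons were highest in it. Their summed level was 439 there in counts scaled to library size (CPM) and 10.4 to 13.4 CPM in the other 17 libraries, where *Mrgprd* and *Mrgpra3* had a median of 0. Results that rest on this library are given with and without it.

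The members spanned a wide range of levels. Per kilobase of annotated exon, *Sort1* was the most abundant with a mean of 41.8 ± 5.69 CPM (SD, n = 18) and a range of 32.0 to 50.6. *Ntrk2*, the gene of TrkB, followed with 19.97 ± 1.51 (range 17.3 to 22.6). *Bdnf* had 2.11 ± 0.328 (range 1.48 to 2.86) and *Ntrk3*, the gene of TrkC, 1.22 ± 0.0720 (range 1.12 to 1.39). These 4 genes kept their order in every library, because their ranges did not overlap. *Ngfr* had a median of 0.337 and ranged from 0.191 to 0.531 CPM per kilobase in 17 libraries, with 7.04 in F1/proestrus replicate 5. *Ntf3* was lowest, with a mean of 0.154 ± 0.0580 and a range of 0.0296 to 0.230 that overlapped that of *Ngfr*, from 4 to 45 reads a library. Of the tested genes, 93.8% were lower per kilobase than *Sort1*, 86.6% were lower than *Ntrk2* and 13.0% were lower than *Ntf3*. *Ntrk2* and *Ntrk3* have long and alternative exons, and the scale moved with the length chosen. Per kilobase of the longest coding transcript, *Sort1* had 46.3 CPM and *Ntrk2* 44.1 CPM, so these neighbours lay close together on that scale.

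**Figure D1:**
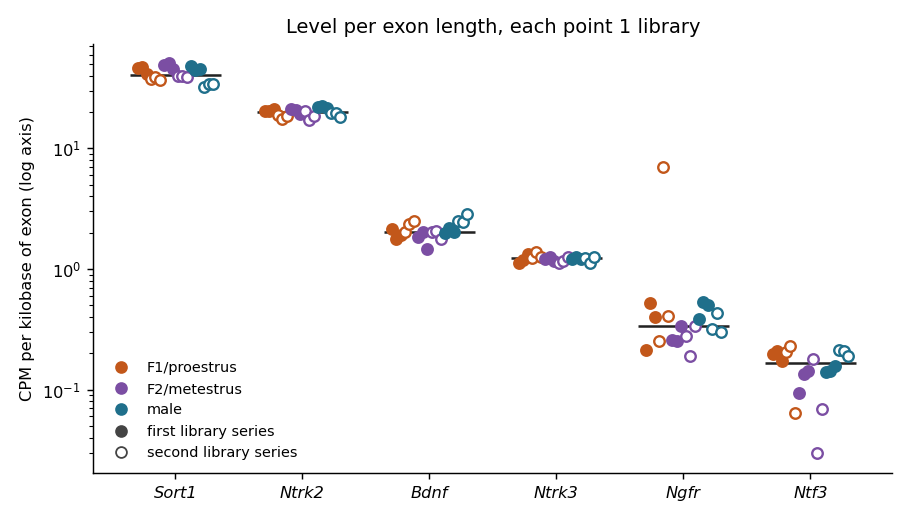
Level of each gene in CPM per kilobase of annotated exon on a log axis, 1 point a library, coloured by group, filled for the first and open for the second library series; lines are medians over 18 libraries. *Sort1* and *Ntrk2* lie highest, and 1 open point lifts *Ngfr* to 7.04 in F1/proestrus replicate 5.

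The genes lie on different chromosomes of GRCm38, and the counts cover exons. *Bdnf* occupies chr2:109674700-109727007 on the plus strand, *Ntf3* chr6:126101412-126166910 on the minus strand, *Ntrk2* chr13:58806569-59133970 on the plus strand, *Ntrk3* chr7:78175959-78738012 on the minus strand, *Ngfr* chr11:95568818-95587735 on the minus strand and *Sort1* chr3:108284082-108361511 on the plus strand. The strand setting of the counting was not stated. *Bdnf* shares 896 exon bases with the antisense gene *Gm45346*, which had 0.562 to 1.18 CPM. *Sort1* shares 338 with *Gm12523*, which had 4.80 to 8.23 CPM.

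*Bdnf* is transcribed from several starts, of which the neuronal ones are known to respond to calcium through cAMP response elements. RefSeq windows from 250 bases before to 50 bases after a start were held for 7 starts of *Bdnf*, 2 of *Ntf3*, 1 of *Ntrk2* and 1 of *Ngfr*. The full element TGACGTCA was in none of these 11 windows on either strand, against 1.79% of 32851 windows of all genes. Its variant TCACGTCA, which differs by a base and so never overlaps a match of the full element at the same position, was in 1 of 11, against 0.441% of all windows. The consensus estrogen response element with a spacer of 3 bases was in none of the 11 and in 0.07% of all. The 100 bases upstream of the *Bdnf* start at 109692436 (chr2:109692336-109692435, plus strand, GRCm38.p6) are shown because they hold the variant, in capitals.

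Bdnf: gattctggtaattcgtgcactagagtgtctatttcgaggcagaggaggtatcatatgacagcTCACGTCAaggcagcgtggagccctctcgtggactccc

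The deposited counts are sums over each gene, so the *Bdnf* values below do not separate this start from the others.

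The first comparison asked whether the 2 female groups, which differ in formalin behaviour and estrous stage, differ in these genes. None of the 6 members passed a false discovery rate (FDR) of 5% by edgeR's quasi-likelihood test, and 0% of the 24042 genes tested did. DESeq2 also called 0 members, but it gave no p for *Ngfr* in this comparison and so could not call it. At an unadjusted p under 0.05, 1 member stood out, *Ngfr*, against 2.48% of all genes. Without F1/proestrus replicate 5 it was 0 members, against 3.2%.

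Among the ligands, *Bdnf* ranged from 11.1 CPM through a median of 13.0 to 15.6 in F1/proestrus, and from 9.19 through 11.9 to 13.0 in F2/metestrus. The groups overlapped, with 3 of 6 F1/proestrus libraries above every F2/metestrus library. As F2/metestrus over F1/proestrus, the log2 fold change was -0.19 ± 0.0990 (SE; edgeR adjusted p = 1.0), the two-sided exact permutation p of mean log2 CPM was 0.115, and the change was -0.14 in the first and -0.23 in the second library series. All 10 markers of dorsal horn neurons also had a lower mean in F2/metestrus, with a median log2 fold change of -0.14 and 0 of 10 past the FDR by edgeR or at an unadjusted p under 0.05. Their summed level was 508 to 790 CPM in F1/proestrus and 526 to 662 in F2/metestrus, none was at 0 in any library, and their part in the *Bdnf* values was not tested. *Ntf3* ranged from 0.109 CPM through a median of 0.345 to 0.394 in F1/proestrus, and from 0.0507 through 0.195 to 0.308 in F2/metestrus. Here 4 of 6 F1/proestrus libraries lay above all of F2/metestrus. The log2 fold change was -0.73 ± 0.367 (edgeR adjusted p = 1.0; exact permutation p = 0.0974). At so few reads, 3 counts already stand for 0.0240 to 0.0407 CPM. The difference did not pass the adjusted test, and whether more reads would change this was not tested.

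Among the receptors, *Ntrk2* had nearly equal medians in the female groups. It ranged from 340 CPM through a median of 381 to 407 in F1/proestrus and from 334 through 384 to 406 in F2/metestrus, with a log2 fold change of 0.0013 ± 0.0610 (edgeR adjusted p = 1.0; exact permutation p = 0.972). *Ntrk3* ranged from 33.7 CPM through a median of 37.7 to 42.0 in F1/proestrus and from 33.7 through 36.1 to 38.0 in F2/metestrus. Its groups overlapped over most of their range, and the log2 fold change was -0.072 ± 0.0597 (edgeR adjusted p = 1.0; exact permutation p = 0.236). *Sort1* ranged from 278 CPM through a median of 306 to 356 in F1/proestrus and from 298 through 325 to 383 in F2/metestrus. Its log2 fold change was 0.095 ± 0.0837 (edgeR adjusted p = 1.0; exact permutation p = 0.292), with 0.11 and 0.078 in the first and the second series. With the series as a covariate it was at an unadjusted p under 0.05, as were 842 of 24042 genes, at 0.093 ± 0.0419 (edgeR adjusted p = 1.0).

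*Ngfr* was decided by 1 library. It ranged from 0.728 CPM through a median of 1.38 to 24.2 in F1/proestrus and from 0.660 through 0.919 to 1.17 in F2/metestrus. The log2 fold change was -2.42 ± 0.797 (edgeR adjusted p = 1.0), and the exact permutation p of mean log2 CPM was 0.126. Without F1/proestrus replicate 5, the F1/proestrus libraries lay at 0.728 to 1.80 CPM with a mean of 1.23 ± 0.431 (SD, n = 5), against 0.949 ± 0.192 (SD, n = 6) in F2/metestrus, and the log2 fold change was -0.38 ± 0.226 (exact permutation p = 0.251). In the same library the DRG markers *Avil*, *Scn10a* and *Mrgprd* had 132, 125 and 32.9 CPM, against at most 0.903, 0.153 and 0.0445 CPM in the others. Whether DRG tissue gave rise to the *Ngfr* reads was not tested.

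**Figure D2:**
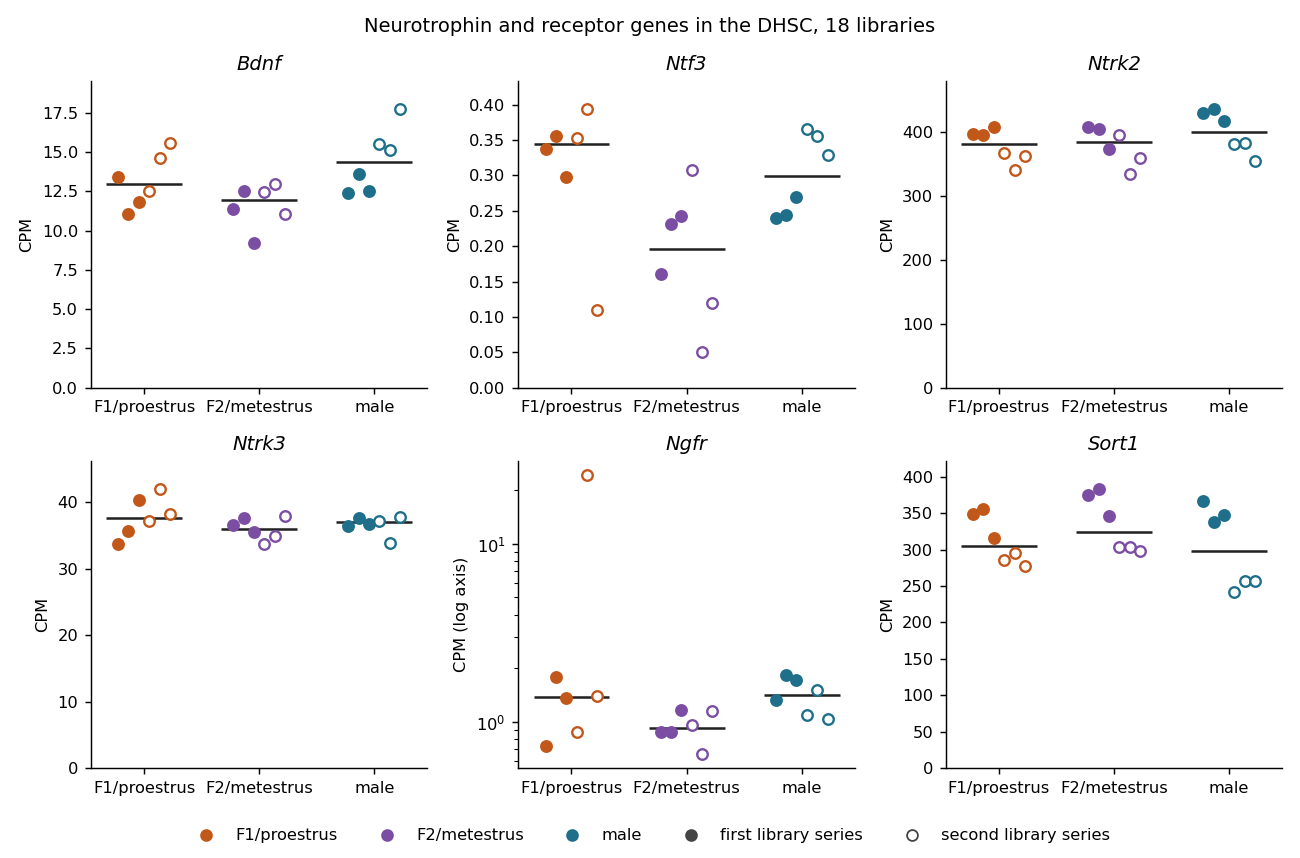
CPM of each gene by group, 1 point a library, filled for the first and open for the second library series, with lines at the group medians; the *Ngfr* axis is logarithmic and the others start at 0. *Bdnf* and *Ntf3* are lowest in F2/metestrus with overlap, *Sort1* splits by library series, and 1 F1/proestrus library holds *Ngfr* at 24.2 CPM.

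The wider pathway was counted over 4 lists of 66 genes, 63 of them tested. None was called between F2/metestrus and F1/proestrus. Of 12 genes of other ligands and their processing, 0 were at an edgeR p under 0.05, and their median log2 fold change was -0.0063, against -0.00038 over all genes. The median over 15 other receptors and co-receptors was -0.017. The 21 signalling adaptors gave 0. The last list of 15 genes is named for induction by TrkB signalling or neuronal activity. It includes *Slc12a5*, which TrkB signalling is known to lower. Of these 15, 1 was at p under 0.05, *Nptx2*, which encodes a pentraxin that clusters glutamate receptors (-0.32 ± 0.128, edgeR adjusted p = 1.0). Their median, *Slc12a5* included, was -0.12, while 2.48% of all genes were at p under 0.05. Without F1/proestrus replicate 5, *Nptx2* had -0.25 and was not at p under 0.05, and 4 other genes of this list were, all immediate early transcription factors, against 3.2% of all genes. *Fos* had -0.29, *Egr1* -0.21 and *Npas4* -0.44, while *Egr2* had 0.33, and none passed the FDR (edgeR adjusted p = 1.0). Of the adaptors, *Gab1* had 0.15 and was also at p under 0.05. *Ntf5*, the other ligand of TrkB, lay at 0.0182 to 0.178 CPM, too low to be tested.

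The second comparison set the 6 males against the 12 females. Here too 0 of 6 members were called, against 0.197% of 24862 genes by edgeR, and DESeq2 called 0 members. *Bdnf* was the member at an unadjusted p under 0.05, against 9.72% of all genes and 5.84% in its direction. Without F1/proestrus replicate 5 it was again 1 of 6 at p under 0.05, against 9.56%, and 0 called, against 0.311%.

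The highest value of *Bdnf* was in a male. Male values ranged from 12.4 CPM through a median of 14.4 to 17.8, with a mean of 14.5 ± 2.05 (SD, n = 6), against 12.4 ± 1.70 (SD, n = 12) in females. The groups overlapped, since only 1 male lay above every female, but 4 of 6 males lay above all of F2/metestrus. The log2 fold change was 0.23 ± 0.0937 (edgeR adjusted p = 0.433), and the exact permutation p was 0.0365 with all libraries and 0.0244 without F1/proestrus replicate 5. The difference was 0.14 in the first library series and 0.30 in the second, and with the series as a covariate the adjusted p was 0.154 by edgeR. Leaving out male replicate 6 brought it to 0.15, the lowest value among the fits without 1 library. Against each female group the log2 fold change was 0.14 over F1/proestrus and 0.32 over F2/metestrus (edgeR adjusted p = 0.387). No member was called in either, against 0.0925% and 0.129% of all genes. At an unadjusted p under 0.05, *Ngfr* over F1/proestrus, at -1.84 with replicate 5 of that group included, and *Bdnf* over F2/metestrus were found, against 6.54% and 8.31% of all genes.

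Markers of dorsal horn neurons had higher means in males, as *Bdnf* did. All 10 had a higher mean in males, and none was at 0 in any library. Of them 2 were past the FDR by edgeR, *Penk* and *Grp*, against 0.197% of all genes. Other neuron lists did not share this direction. The mean was higher in males for 2 of 5 general neuron markers and 2 of 4 excitatory ones. These 2 excitatory markers, *Lmx1b* and *Tlx3*, are also in the dorsal horn list, and the excitatory markers outside it had lower means in males. It was higher for 2 of 5 inhibitory and 0 of 6 ventral motor neuron markers. The summed level of the dorsal horn markers was 699 to 1008 CPM in males. That lay above all of F2/metestrus and overlapped the 508 to 790 CPM of F1/proestrus. Their part in the *Bdnf* difference was not tested.

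No other member was at p under 0.05 over all females in the fit without the library series. *Ntf3* ranged from 0.240 CPM through a median of 0.299 to 0.366 in males, inside the range of the females, with a log2 fold change of 0.27 ± 0.300 (exact permutation p = 0.235). It was 0.68 over F2/metestrus and -0.044 over F1/proestrus, and all 6 males lay above the F2/metestrus median. *Ntrk2* ranged from 354 CPM through a median of 399.6 to 435 in males, with a log2 fold change of 0.080 ± 0.0527 (exact permutation p = 0.149). With the series as a covariate it had 0.079 ± 0.0351 (edgeR adjusted p = 0.269) and was at an unadjusted p under 0.05, as were 4075 of 24862 genes, but not without F1/proestrus replicate 5. The 3 males above every female were all of the first library series. *Ntrk3* ranged from 33.9 CPM through a median of 37.0 to 37.8 in males, with a log2 fold change of -0.013 ± 0.0486 (exact permutation p = 0.815).

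*Ngfr* changed direction with 1 library. Males ranged from 1.04 CPM through a median of 1.41 to 1.83, and 4 of 6 lay above every F2/metestrus library. Over all females the log2 fold change was -1.09 ± 0.741 (edgeR adjusted p = 0.636), and without F1/proestrus replicate 5 it was 0.39 ± 0.189 (edgeR adjusted p = 0.524; exact permutation p = 0.0583). With the series as a covariate and without that library it was at an unadjusted p under 0.05, as were 3775 of 24739 genes, at 0.39 ± 0.181 (edgeR adjusted p = 0.305). Schwann cells of peripheral nerve also express *Ngfr*, and all 5 of their markers had a higher mean in males. Of these 1 was past the FDR, against 0.197% of all genes. The Schwann cell sum was 896 to 2176 CPM in males, 605 to 1203 in F1/proestrus and 629 to 924 in F2/metestrus, and its part in the *Ngfr* levels was not tested.

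*Sort1* ranged from 242 CPM through a median of 298 to 367 in males, and its log2 fold change over females was -0.10 ± 0.0909 (exact permutation p = 0.259). With the series as a covariate it had -0.12 ± 0.0440 (edgeR adjusted p = 0.194) and was also among the genes at an unadjusted p under 0.05, also without F1/proestrus replicate 5. The library series gave unequal values. In the second series the 3 males had 242 to 258 CPM and the 6 females 278 to 304, without overlap, as was so for 5.24% of genes, and the log2 fold change was -0.22 (edgeR adjusted p = 0.233). In the first series males had 338 to 367 CPM within the 316 to 383 of the females, and the log2 fold change was -0.026. The term for the difference between the series was -0.21 ± 0.0758 (edgeR adjusted p = 0.964), so it did not pass the FDR.

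**Figure D3:**
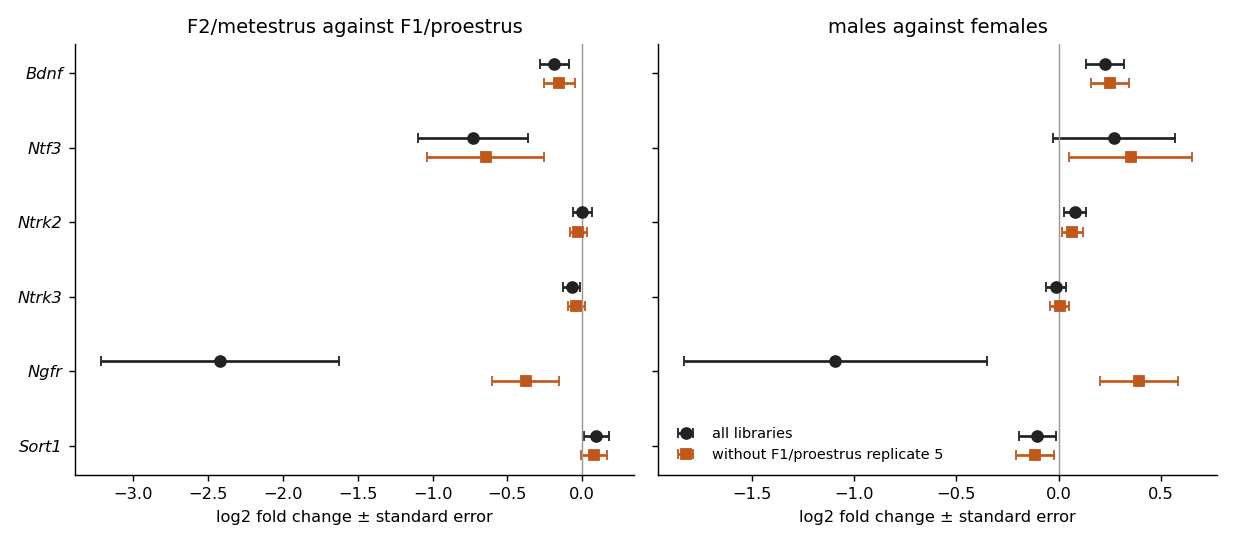
Log2 fold change ± standard error of the 6 genes for F2/metestrus against F1/proestrus (left) and males against females (right), with all libraries (black) and without F1/proestrus replicate 5 (orange). Removing this library moves *Ngfr* from -2.42 to -0.38 and from -1.09 to 0.39 and leaves the other genes near their values.

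In the pathway lists, 0 of 63 genes were called between the sexes by edgeR. The list of genes induced by TrkB signalling or activity, *Slc12a5* included, had a median log2 fold change of 0.11, against -0.0013 over all genes. Of its 15 genes, 4 were at p under 0.05, all higher in males, against 9.72% of all genes and 5.84% in that direction. *Egr2*, an immediate early transcription factor, had 25.0 ± 4.02 CPM in males (SD, n = 6), 17.9 ± 5.62 in F1/proestrus and 20.04 ± 2.13 in F2/metestrus. Its log2 fold change over all females was 0.40 ± 0.131 (edgeR adjusted p = 0.323). *Nptx2* had 22.2 ± 2.29 CPM in males (SD, n = 6), 19.2 ± 4.68 in F1/proestrus and 15.3 ± 0.531 in F2/metestrus. For *Nptx2* the value over all females was 0.36 ± 0.116 (edgeR adjusted p = 0.310). *Vgf*, which encodes a secreted neuropeptide precursor, had 0.16 and *Dusp6*, which encodes a phosphatase of ERK, 0.091. Without F1/proestrus replicate 5 it was again 4 of 15, against 9.56% of all genes, with an adjusted p of 0.120 for *Nptx2* and 0.121 for *Egr2* by edgeR.

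The remaining lists gave values on both sides. Among the ligands and their processing, *Pcsk6*, a proprotein convertase, had 0.095 and *Serpini1*, a protease inhibitor of neurons, -0.13. The receptors and co-receptors had a median of -0.034. Among the adaptors, which link Trk receptors to the Ras and PI3 kinase pathways, *Shc4* had 0.18, *Sh2b2* 0.23 and *Gab1* -0.17. These 5 genes had an unadjusted p under 0.05 with all libraries and an adjusted p over the FDR threshold by edgeR. Set against single female groups, males had 5 of 15 induced genes at p under 0.05 over F2/metestrus, against 8.31% of all genes, where *Nptx2* had 0.53 (edgeR adjusted p = 0.106), *Fosb* 0.51 and *Nr4a1* 0.23. Over F1/proestrus 1 of 15 was, against 6.54% of all genes, *Egr2* with 0.48, and *Plcg2* among the adaptors had 0.25. These comparisons share the male libraries.

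Several members differed between the library series. With group in the model, 3 of 6 members passed the FDR between the second and the first series by edgeR, against 27.6% of 24038 genes. The same count of 3 was found in every fit without 1 library. *Sort1* ranged from 316 CPM through a median of 349 to 383 in the first series and from 242 through 285 to 304 in the second. These ranges did not overlap, which was so for 4.08% of genes. The log2 fold change was -0.36 ± 0.0409 (edgeR adjusted p = 3.73e-06). *Ntrk2* ranged from 372 CPM through a median of 406 to 435 in the first and from 334 through 362 to 395 in the second series, with a log2 fold change of -0.18 ± 0.0333 (edgeR adjusted p = 0.000422). *Bdnf* went the other way, from 9.19 CPM through 12.4 to 13.6 in the first series to 11.1 through 14.6 to 17.8 in the second, and its log2 fold change was 0.21 ± 0.0675 (edgeR adjusted p = 0.0234). *Ntf3* with -0.043, *Ntrk3* with -0.010 and *Ngfr* with 0.76 did not pass (edgeR adjusted p = 0.928, 0.886 and 0.376), and *Ngfr* had -0.23 without F1/proestrus replicate 5. Of the markers, 6 of 10 of dorsal horn neurons were higher and 3 of 4 of oligodendrocyte precursors lower past the FDR in the second series, and their part in these values was not tested. What the library numbers stand for was not stated in the sources used here, and all 3 groups are equally divided between the series.

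**Figure D4:**
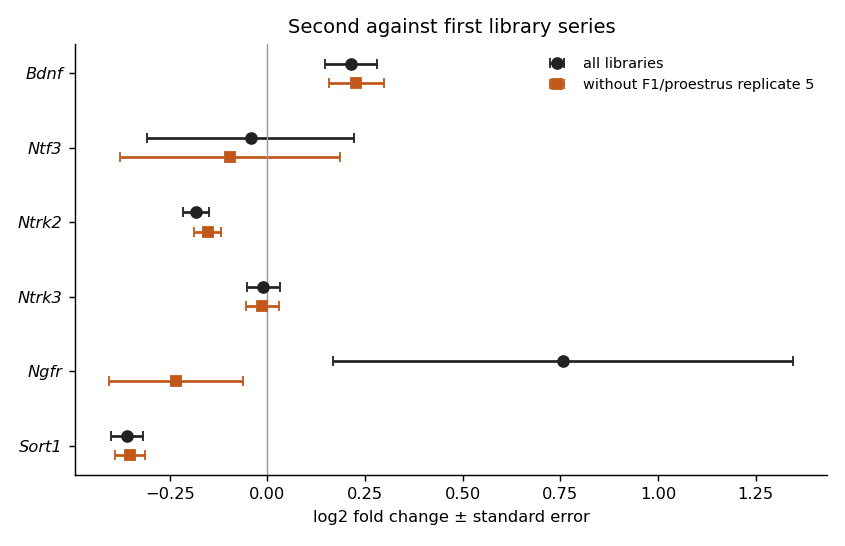
Log2 fold change ± standard error of the second over the first library series, adjusted for group, with all libraries (black) and without F1/proestrus replicate 5 (orange). *Sort1* at -0.36 and *Ntrk2* at -0.18 lie below 0 and *Bdnf* at 0.21 above it, while *Ngfr* crosses 0 when the library is left out.

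Co-receptors related to sortilin were, like *Sort1*, lower in the second series. Of the 15 other receptors and co-receptors, 6 were lower and 1 higher past the FDR. Over all 24038 genes 27.6% passed, 3656 lower and 2981 higher, and the counts of the lists below stand against this share. The sortilin family members *Sorl1*, *Sorcs1*, *Sorcs2* and *Sorcs3* had log2 fold changes of -0.42, -0.28, -0.15 and -0.14, the Trk scaffold *Kidins220* had -0.34, the ubiquitin ligase *Traf6* had -0.28, and *Bex3*, whose protein binds the receptor encoded by *Ngfr*, had 0.20. Of 21 adaptors, 8 were lower and 3 higher past the FDR. The lower ones were *Shc3* (-0.46), *Sos1* (-0.43), *Irs1* (-0.42), *Rapgef1* (-0.35), *Frs2* (-0.32), *Sos2* (-0.31), *Plcg1* (-0.29) and *Gab2* (-0.25), and the higher ones *Frs3* (0.21), *Shc4* (0.15) and *Grb2* (0.12). In the list named for induction, *Slc12a5*, the gene of the chloride exporter KCC2 that TrkB signalling is known to lower, had -0.28. *Nptx2* had 0.28, and both passed the FDR. *Crk* (-0.13), *Ptpn11* (-0.11), *Homer1* (-0.15) and *Pcsk2* (0.088) were at an unadjusted p under 0.05 without passing the FDR. Of all 24038 genes, 9172 were at an unadjusted p under 0.05.

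The 6 genes varied unequally over the 18 libraries. The coefficient of variation was 5.89% for *Ntrk3*, 7.55% for *Ntrk2*, 13.6% for *Sort1*, 15.6% for *Bdnf* and 37.6% for *Ntf3*. For *Ngfr* it was 30.4% in the 17 libraries without F1/proestrus replicate 5. Of the 15 pairs of members, 1 passed the FDR for Pearson's r of log2 CPM, *Bdnf* with *Sort1* (r = -0.67, permutation p = 0.0019, adjusted p = 0.0285; rho = -0.64, permutation p = 0.00516, adjusted p = 0.0387; n = 18). Because *Sort1* forms separate clusters by library series, the relation was also taken within each. It was 0.0044 in the first series (exact permutation p = 0.991, n = 9) and -0.75 in the second (exact permutation p = 0.0224, adjusted p = 0.287, n = 9), so it did not hold within both. Without the 2 libraries farthest from the median, F2/metestrus replicate 3 and male replicate 6, r was -0.65 (adjusted p = 0.0566 by permutation). *Ntrk2* with *Sort1* passed by rho alone (rho = 0.65, permutation adjusted p = 0.0387; r = 0.59, permutation adjusted p = 0.0541), and r was 0.0061 and -0.34 within the series.

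Each member was also set against the mean level of 16 lists of cell type markers, in 96 pairs. The pairs past the FDR over all 18 libraries both involved the 4 markers of oligodendrocyte precursors. *Sort1* was positively correlated with them (r = 0.92, permutation p = 1e-05, the smallest that 100000 resamples can give, adjusted p = 0.00096; rho = 0.91, permutation adjusted p = 0.00096; n = 18). Within the series r was 0.51 (exact permutation p = 0.165, n = 9) and 0.75 (exact permutation p = 0.0237, n = 9), neither past the FDR, and it was 0.87 over 16 libraries without male replicates 4 and 6. *Bdnf* was negatively correlated with the same list (r = -0.74, permutation p = 0.00033, adjusted p = 0.0158; rho = -0.72, permutation p = 0.001, adjusted p = 0.0480; n = 18). Within the series r was -0.60 (exact permutation p = 0.0731, n = 9) and -0.70 (exact permutation p = 0.0351, n = 9), and without male replicates 4 and 6 it was -0.64 (permutation adjusted p = 0.147), no longer past the FDR. The summed level of these markers was 171 to 190 CPM in the first series and 129 to 172 in the second, with the 3 second-series males at 129 to 150. After centring in each series no pair passed (adjusted p = 0.250 by permutation for both). *Bdnf* with dorsal horn neuron markers had r = 0.63 (permutation p = 0.00493, adjusted p = 0.118; rho = 0.62, permutation adjusted p = 0.145; n = 18), 0.22 and 0.71 within the series, and 0.72 without F1/proestrus replicate 1 and male replicate 5. *Ngfr* with DRG markers had r = 0.93 (permutation adjusted p = 0.127; rho = 0.33, permutation adjusted p = 0.612; n = 18), and 0.27 without F1/proestrus replicate 5, so that this value rested on 1 library.

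**Figure D5:**
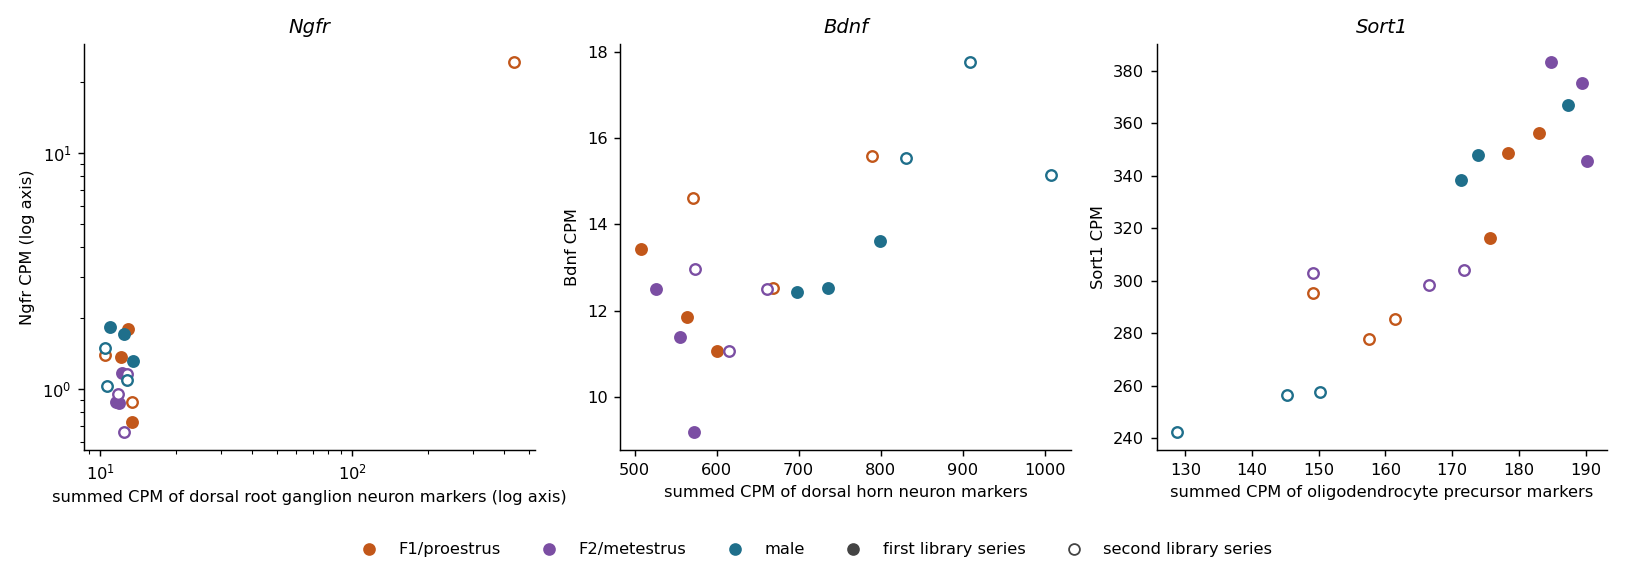
CPM of *Ngfr*, *Bdnf* and *Sort1* (vertical axes) against the summed CPM of markers of DRG neurons, dorsal horn neurons and oligodendrocyte precursors (horizontal axes), 1 point a library, filled for the first and open for the second library series; both *Ngfr* axes are logarithmic. F1/proestrus replicate 5 lies alone at 439 CPM of DRG markers, and *Sort1* forms 2 clusters by library series.

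Among 17762 other genes with a mean of at least 1 CPM (17763 for *Ntf3*), the patterns most like each member were sought by Pearson's r of log2 CPM over the 18 libraries after centring in each library series. They are given as a description, and Spearman's rho of these pairs was 0.66 to 0.91. *Bdnf* was followed most closely by *Tmem116* (r = 0.82) and *Erp29* (r = 0.79). *Ntf3* was nearest to *B230377A18Rik* and *Arhgap25* (both r = 0.82), *Ntrk2* to *Cpe* and *Ccdc51* (both r = 0.83), and *Ntrk3* to *Zfp69* (r = 0.81) and *Bfsp1* (r = 0.80). *Sort1* was nearest to *Sema6d* (r = 0.90) and *Ermp1* (r = 0.89). *Ngfr* was nearest to *Dgkz* (r = 0.96) and *Gcnt2* (r = 0.95), and without F1/proestrus replicate 5 to *Ajap1* (r = 0.90) and *Cacna1g* (r = 0.87), so its neighbours changed with that library. For the other members at least 1 of the 2 neighbours also changed without it. *Bdnf* was then nearest to *Snx24* (r = 0.92), ahead of *Tmem116* (r = 0.82), and *Ntrk2* to *Kcnh1* (r = 0.84) and *Zfp335* (r = 0.82). The nearest genes of *Ntf3* (*B230377A18Rik*, r = 0.87), *Ntrk3* (*Zfp69*, r = 0.84) and *Sort1* (*Sema6d*, r = 0.91) were the same, and the next were *A930017K11Rik* (r = 0.82), *Top3b* (r = 0.79) and *Slc4a4* (r = 0.90). Without centring, *Ntrk2* had r = -0.23 with *Cpe* and 0.14 with *Ccdc51* over the 18 libraries, and the other pairs had 0.79 to 0.96. Without F1/proestrus replicate 5 and without centring, *Ngfr* had 0.50 with *Ajap1* and *Ntf3* had 0.64 with *A930017K11Rik*. The other pairs then had 0.78 to 0.97. No member was among the neighbours of another.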

How the data were processed

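Gene counts were measured in 18 libraries of mouse DHSC, and the raw counts per gene were used as the authors deposited them. Per the study's methods, reads were mapped uniquely to mm10 with Subread and counted over exons with featureCounts, while per the labels' processing notes the versions were Subread 2.0.3 and bcl2fastq 2.20.0.422. The sources differed on the library kit. The deposited table of the authors' own comparison was used for gene symbols alone, and its fold changes and p-values were not read. No library was pooled, and none was identical to another.

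Groups came from the sample titles. The members and lists were chosen with earlier results of these data known. Genes passing filterByExpr (minimum count 10) were scaled by TMM and tested with edgeR 4.0.16 (quasi-likelihood test, R 4.3.3), with Benjamini-Hochberg adjustment over all genes at an FDR of 5%. The stage comparison used the 12 female libraries alone, males against females used all 18, and the series comparison all 18 with group as a term. SE was taken as the absolute log2 fold change over the root of the F statistic. CPM were scaled by TMM, and log2 CPM used a prior count of 2. Depth was 73590509 to 125724156 counts, and a floor of 3 counts covers counting error only. Correlations used 100000 permutations, adjusted over their 15 or 96 pairs, and within a series every permutation. Named genes were the 6 members, the 66 pathway genes at an unadjusted p under 0.05 with *Ntf5*, and the 2 genes most like each member. Some genes that this rule names are not reported here. Genes named for the fits without F1/proestrus replicate 5 were added after values were seen. Of 55573 gene identifiers, 55480 were found in GENCODE vM21 (GRCm38), which gave coordinates and lengths. Alternatives were DESeq2 1.42.0, RLE scaling, other filters, the library series and replicate as terms, single series, single female groups and each library left out. Scripts were tested on simulated data. Replicates were separate samples by title, and the study's methods give 6 males, 6 F1/proestrus and 6 F2/metestrus females. The titles alone do not say that each was 1 animal, and p-values measure the spread between these libraries.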

Additional observations from a re-analysis of the deposited data

Results flagged for a closer look

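Within groups of 6 libraries, 3 of 18 sets of values had 1 library farther from the rest than Dixon's 95% limit, where chance flags about 1 in 20. *Ngfr* had 24.25 CPM in F1/proestrus replicate 5, with a gap to the next library of 0.955 of the group's range. *Ntf3* had 0.1093 CPM in F1/proestrus replicate 6, the lowest of its group, with a gap of 0.664 of the range. *Ntrk3* had 33.94 CPM in male replicate 5, the lowest male value, with a gap of 0.672 of the range.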

How the results depend on the processing

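In every alternative run, 0 of 6 members were called between F2/metestrus and F1/proestrus and between males and females, and 3 of 6 between the library series. The count of all genes called between the sexes moved from 49 to 158 with DESeq2, 31 with at least 10 counts in every library, 148 with the replicate block, 134 with the series as a covariate, 177 with that covariate and without F1/proestrus replicate 5, 16 and 13 in the first and the second series alone, 23 against F1/proestrus and 32 against F2/metestrus. Leaving out 1 library gave 25 (without male replicate 5) to 77 (without F1/proestrus replicate 5). Between the female groups DESeq2 called 2 genes instead of 0. Whether replicate numbers pair the libraries could not be decided. Of 18 same-number pairs, 9 had deviations correlated above 0.1 (-0.10 to 0.23), and in 5 of these 18 the same-number library was the best match. Libraries of the same series with other numbers had mean correlations of -0.0058 to 0.18, so the check does not separate pairing from the library series. With the replicate block *Sort1* had a log2 fold change of 0.093 between the female groups and no member call changed. After centring in each series, 0 pairs of members and 0 pairs of a member with a marker list passed the FDR, and without the 2 farthest libraries 0 and 3 did. Those 3 did not include *Bdnf* with the markers of oligodendrocyte precursors, so not all of them were past the FDR over all 18 libraries. Directions reversed for small or single-library values. For F2/metestrus against F1/proestrus, *Ntrk2* had -0.0023 at a minimum of 10 counts, -0.024 in the first series, -0.013 with the series covariate without F1/proestrus replicate 5, and -0.026 to 0.038 with 1 library left out. For males against females, *Ngfr* had 0.37 with DESeq2, 0.50 in the first series, 0.58 against F2/metestrus, 0.39 with the series covariate without F1/proestrus replicate 5, 0.039 as a difference of mean log2 CPM, and -1.20 to 0.39 with 1 library left out. *Ntf3* had -0.12 in the first series and -0.044 against F1/proestrus. *Ntrk3* had 0.00058 in the first series, 0.022 against F2/metestrus, 0.0052 with the series covariate without F1/proestrus replicate 5, and -0.033 to 0.0046 with 1 library left out. For the second against the first series, *Ntrk3* had 0.013 with DESeq2, 0.0096 with RLE scaling and 0.00079 at a minimum of 10 counts. With 1 library left out, *Ntrk3* had -0.015 to 0.027, *Ntf3* -0.18 to 0.11 and *Ngfr* -0.23 to 0.93. The cause was not tested, except that *Ngfr* turned without F1/proestrus replicate 5. *Ntf3* had no value at a minimum of 10 counts in every library, and DESeq2 gave no p for *Ngfr* in the stage and series comparisons. *Ntf3*, with as few as 4 reads in a library, limits what depth can show.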
